A study of Mus musculus with 2 samples.

Results

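The genes described here encode the proteins of the mitochondrial ribosome. They were taken from the deposited gene table by symbol, as every row whose symbol is Mrpl (large subunit) or Mrps (small subunit) followed by a number and, in some, a letter. This gave 77 of 36227 genes, 48 of them Mrpl and 29 Mrps. RNA was sequenced from mature oocytes, arrested at the second meiotic metaphase (MII), that ICR mice had ovulated naturally. The young library came from females 3 months old and the aged library from females 12 months old. Each was 1 pool of 18 oocytes, with 3 oocytes from each of 6 females, so the values describe 2 pools and not 12 animals. No genotype or treatment other than age separates the groups, and the labels name none that they share beyond the strain. The study's title concerns BubR1, aneuploidy and the reproductive lifespan, and the comparison made by the design is that of the oocyte transcripts of aged and young females.

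The mitochondrial ribosome translates the few proteins that the mitochondrial genome encodes, all of them subunits of the respiratory chain or of ATP synthase. Its ribosomal RNAs are made inside the mitochondrion, whereas its proteins are encoded in the nucleus, translated in the cytosol and imported. Many of these proteins have a bacterial counterpart and the others arose within the mitochondrial lineage. The oocyte holds a very large number of mitochondria and passes them to the embryo, and inherited defects of several mitochondrial translation genes, among them MRPS22 and MRPS7, cause ovarian insufficiency in humans.

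Depth was 19475110 counts for young and 18597656 for aged oocytes, and a count of 0 allowed up to 0.154 and 0.161 counts per 1000000 counted reads (CPM). Each age has 1 library, so the spread between animals or pools is unknown and no test was run. Pairs of counts are given with the young library first. A difference is described by its size, with 2-fold as the limit, and by a 95% exact (Clopper-Pearson) interval that covers counting error only. The amplified reads carried no molecular identifiers and are not independent molecules. In a pool, fewer cells of a type and less RNA per cell cannot be told apart. All 14 oocyte markers had counts above the floor defined below, Gdf9 the most and Figla the fewest. Their levels differed between the libraries, with a sum of 182695 and 103399 CPM, 5 of the 14 at least 2-fold lower, 2 higher and a median log2 ratio of −0.61. These are 35.7% lower and 14.3% higher, where all genes above the floor gave 10.6% and 27.9% and a median of 0.43. Gdf9 had 97099 and 42795 CPM, and Figla was 7.87-fold lower. Of 16 cumulus and granulosa markers 1 lay above it, Cyp19a1, with 22.4 CPM (young) and 56.8 CPM (aged). The list summed to 26.3 and 58.2 CPM, and without Cyp19a1 to 77 and 27 counts. Cyp11a1 had 27 and 1 counts, Hsd3b1 18 and 6, and Inha and Fst 14 and 0 each. Fshr went the other way with 0 and 16 counts, as did Has2 with 0 and 2. Tnfaip6, Ptx3 and Ptgs2 had at most 2 counts in a library. Amh, Foxl2, Inhba, Lhcgr, Star and Areg had no counts. Vim, a stromal marker, had 51 and 0 counts, and Ptprc, of leukocytes, 1 and 0. The part of these cells, and of the oocyte markers' difference, in the results below was not tested.

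Of the 77 genes, 72 passed the floor used throughout, 20 counts as the mean of the 2 libraries. Mrpl41 (16 and 2 counts), Mrpl1 (9 and 15), Mrpl27 (4 and 4) and Mrpl23 (2 and 5) lay below it, and Mrps10 had no count in either library. Mrpl33 was not analysed here. Summed over all members, the family held 30574 and 32205 counts, 0.157% and 0.173% of all. The sum was 1.10-fold higher in the aged library, with 1570 and 1732 CPM, but its log2 ratio was −0.28 relative to the median gene, whose own ratio lay above 0 (below).

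The similar sums held large differences of single genes in both directions. In the aged library 18 of the 72 genes reached 2-fold higher and 12 reached 2-fold lower. Of all 10211 genes that passed the floor, 27.9% were that much higher and 10.6% that much lower. The family's share of higher genes, 25%, was near the background and its share of lower genes, 16.7%, was above it. Ratios are given as log2 of the aged level divided by the young level. Their median was 0.12 for the family and 0.43 for all genes. The whole counting interval was past 2-fold for 9 higher and 9 lower members, 12.5% each, where the background was 18.0% and 6.35%. Relative to the median gene, which takes 0.43 from each ratio, 8 of the family reached 2-fold higher and 17 reached 2-fold lower, 11.1% and 23.6% against 16.0% and 17.3% of all genes. The split of higher against lower calls thus turned with the scaling, and the median became −0.30. Ratios of the members spread with an SD of 1.51 on the log2 scale, and those of all genes with an SD of 1.25.

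**Figure D1:**
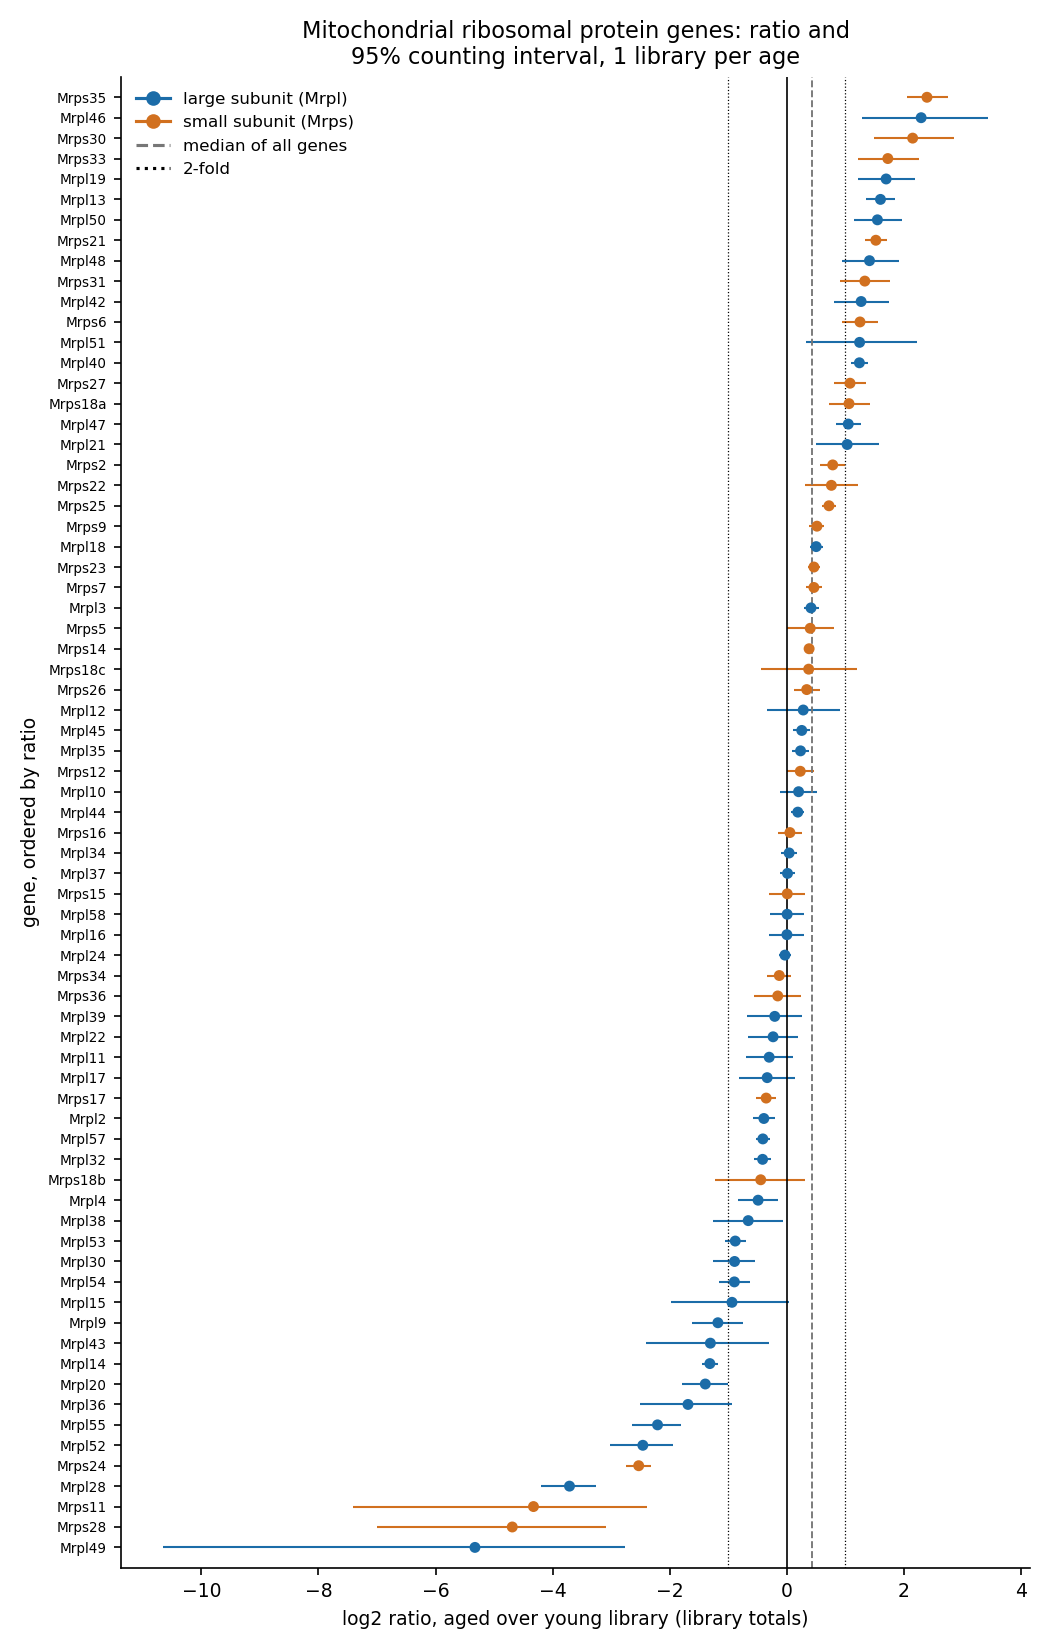
Log2 ratio of aged over young (x axis) for the 72 genes above the floor (y axis), ordered by ratio. Points are ratios after scaling to library totals, bars are 95% counting intervals of 1 library per age, dotted lines mark 2-fold and the dashed line the median of all genes at 0.43. Mrps35 at the top lies at 2.40 and Mrpl49 at the bottom at −5.33.

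Differences were rarest among the genes with most counts. Of 21 members with a mean of 500 counts or more, 4 were 2-fold apart or more, 2 each way. These were Mrps21 and Mrpl40 on the higher side and Mrps24 and Mrpl14 on the lower side. Of the 29 members between 100 and 500 counts, 13 were at least 2-fold apart, and of the 22 below 100 counts 13 as well. In percent these are 19.0%, 44.8% and 59.1%, and the same classes of all genes gave 29.3%, 36.9% and 48.6%.

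Levels of different genes were compared per length of the longest annotated protein-coding transcript, as CPM per kilobase. Mrpl14, whose product lies where the 2 subunits meet, ranked highest in the young library with 124 CPM per kilobase, followed by Mrpl34 with 78.8 and Mrps24 with 65.4. Mrpl24, Mrpl53 and Mrps23 came next, with 64.7, 54.3 and 53.8 CPM per kilobase. In the aged library Mrps21, a small protein of the small subunit, ranked highest with 93.9 CPM per kilobase, ahead of Mrpl34 with 81.2 and Mrps23 with 74.3. Mrpl18, Mrps14 and Mrpl24 followed with 69.8, 64.6 and 63.4. Mrpl34, Mrpl24 and Mrps23 were therefore among the 6 most abundant members at both ages, while Mrpl14 had moved to rank 9 and Mrps24 to rank 28. The order depended on the length used. By coding length 4 of the 6 genes were the same in each library, Mrps14 ranked first in both, Mrpl14 ranked 3 in the young library, and Mrps21 and Mrpl24 ranked 5 and 8 in the aged one. The spacing between neighbouring ranks has no replicate error, so their order is that of these libraries alone.

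**Figure D2:**
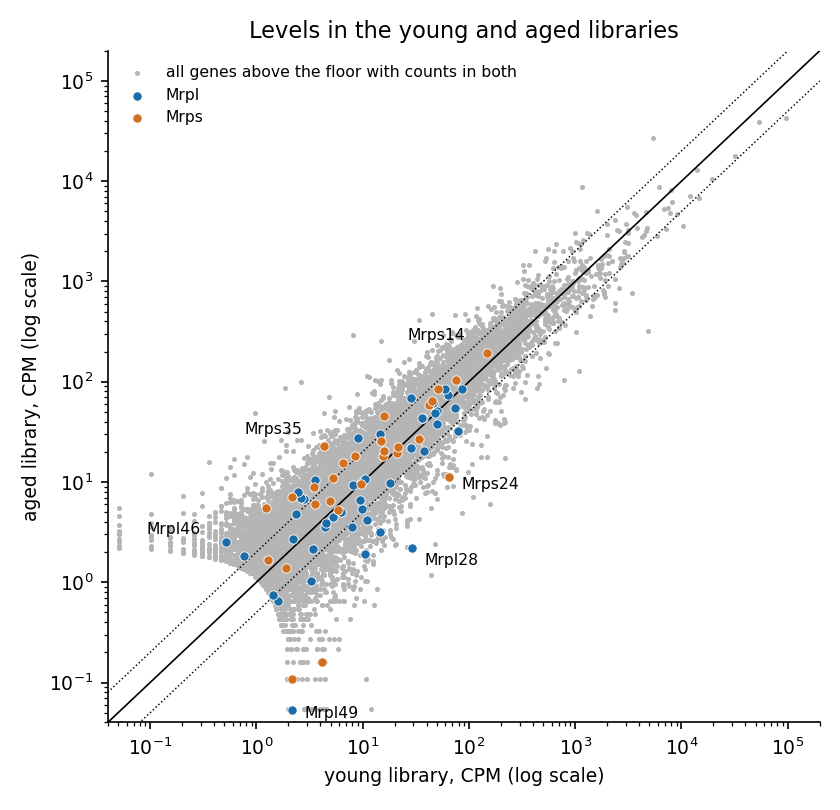
CPM in the young (x axis) and aged library (y axis), both on log scales, for all genes above the floor with counts in both (grey) and for Mrpl (blue) and Mrps genes (orange). The solid line marks equality and the dotted lines 2-fold. Mrps14, with 148 and 194 CPM, is the member with the highest CPM, and Mrpl28 and Mrps24 lie well below the line.

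The large subunit, which holds the peptidyl transferase centre and the exit tunnel, had 44 genes above the floor, of which 10 reached 2-fold higher and 9 reached 2-fold lower. These are 22.7% and 20.5%, where all genes gave 27.9% and 10.6%. The median log2 ratio of the 44 genes was −0.12. Relative to the median gene it was −0.54, with 4 genes higher and 14 lower by that rule. That is 9.09% and 31.8%, against 16.0% and 17.3% of all genes. The lowest ratio belonged to Mrpl49 (ENSMUSG00000007338, chromosome 19), a mitochondria-specific protein, with 42 and 1 counts. That is a level 40.1-fold lower with an interval from 6.82-fold to 1621-fold, so its size is poorly fixed. Mrpl28 (ENSMUSG00000024181, chromosome 17), which has a bacterial counterpart, is better measured. It had 562 and 41 counts and was 13.1-fold lower (interval 9.53 to 18.4); its level went from 28.9 to 2.20 CPM.

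Further large-subunit genes were lower by smaller factors. Mrpl52, with 207 and 36 counts, was 5.49-fold lower (3.84 to 8.06), and Mrpl55, with 285 and 59 counts, 4.61-fold lower (3.47 to 6.21). Mrpl52 is mitochondria-specific, and Mrpl55 has a bacterial counterpart. Mrpl36, a small zinc-binding protein with a bacterial counterpart, had 64 and 19 counts and was 3.22-fold lower (1.90 to 5.69). Mrpl20 was 2.62-fold lower with 214 and 78 counts, and Mrpl14 2.48-fold lower with 1552 and 597 (2.26 to 2.73). Mrpl43 (31 and 12 counts) and Mrpl9 (156 and 66) complete the 9 genes, and their intervals begin at 1.23-fold and 1.68-fold. Just inside 2-fold lay Mrpl15 (28 and 14 counts), 1.91-fold lower, and Mrpl54 (350 and 180), 1.86-fold lower.

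Among the higher genes, Mrpl46 had 10 and 47 counts, 4.92-fold higher (2.45 to 10.9). Its product belongs to the central protuberance, the crown of the large subunit that in mitochondria is built largely of mitochondria-specific proteins. The further crown genes given next are not a full list and do not give the direction of the crown as a whole. They did not share a size of difference. Mrpl48 was 2.67-fold higher with 51 and 130 counts, and Mrpl40 2.37-fold higher with 561 and 1269 (2.14 to 2.62). Mrpl38, with 66 and 40 counts, was 1.58-fold lower. Mrpl58, a former peptidyl-tRNA hydrolase built into the crown, had 206 and 198 counts, a ratio of 1.01 with an interval from 0.82 to 1.23.

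Mrpl19 (48 and 149 counts) was 3.25-fold higher, Mrpl13 (175 and 508) 3.04-fold (2.56 to 3.63) and Mrpl50 (70 and 196) 2.93-fold (2.22 to 3.91). Mrpl50 is mitochondria-specific, while Mrpl13 and Mrpl19 have bacterial counterparts. Mrpl42, Mrpl51, Mrpl47 and Mrpl21 were between 2.05-fold and 2.42-fold higher, and the lower ends of their intervals lay below 2-fold.

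The stalk that recruits translation factors showed little difference. Mrpl10, its base protein, had 159 and 175 counts, and Mrpl12, the stalk protein proper, which also binds the mitochondrial RNA polymerase, 43 and 50. Mrpl11, which lies beside the stalk, had 121 and 94 counts and was 1.23-fold lower. All 3 intervals include equality. The same holds for Mrpl16, near the catalytic centre, with 193 and 185 counts, and for Mrpl22, of the exit tunnel, with 102 and 83. Mrpl24, another tunnel protein and among the most abundant members, had 1686 and 1579 counts, a ratio 1.02-fold lower with an interval from 0.95 to 1.09. Mrpl2 and Mrpl4, which reach into the ribosomal core, were 1.31-fold and 1.40-fold lower, and Mrpl3 was 1.33-fold higher. Mrpl45, which anchors the ribosome to the inner membrane, was 1.20-fold higher with 708 and 809 counts. Mrpl44, which carries a ribonuclease III fold, was 1.14-fold higher with 1249 and 1362. Relative to the median gene, Mrpl3, Mrpl44 and Mrpl45 fall below 0, as does every ratio under 0.43 on the log2 scale.

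The small subunit, which binds the messenger RNA and decodes it, had 28 genes above the floor, of which 8 reached 2-fold higher and 3 reached 2-fold lower. These are 28.6% and 10.7%, close to the 27.9% and 10.6% of all genes. Relative to the median gene, 4 of the 28 were higher and 3 lower by that rule. That is 14.3% and 10.7%, against 16.0% and 17.3% of all genes. The median log2 ratio was 0.43, near that of all genes, and 21 of the 28 genes had a ratio above 0, 75%, compared with 21 of 44 in the large subunit, 47.7%, and 66.4% of all genes. Whether the subunits differ could not be tested with 1 library per age. Despite their symbols, Mrps30 and Mrps18a sit in the large subunit, and Mrps36 is a subunit of the 2-oxoglutarate dehydrogenase complex. With these placed by structure, 6 of 25 small-subunit genes were higher and 3 lower with a median of 0.40, and 12 of 46 large-subunit genes were higher and 9 lower with a median of −0.01.

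The highest ratio of the family was that of Mrps35 (ENSMUSG00000040112, chromosome 6), a mitochondria-specific protein, with 84 and 423 counts. It was 5.27-fold higher (4.16 to 6.75). Mrps30 had 24 and 102 counts and was 4.45-fold higher (2.83 to 7.26), and Mrps33, with 42 and 133 counts, was 3.32-fold higher (2.33 to 4.81). Mrps21 (ENSMUSG00000054312, chromosome 3), with 310 and 852 counts, was 2.88-fold higher (2.52 to 3.29) and is the best measured of these. Mrps31, Mrps6, Mrps27 and Mrps18a were between 2.09-fold and 2.53-fold higher, with intervals that begin below 2-fold. Mrps27 is a pentatricopeptide repeat protein, of a family that binds RNA.

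The 3 lower genes of the small subunit were all far from equality. Mrps28 (ENSMUSG00000040269, chromosome 3), related to a bacterial protein that binds the messenger, had 81 and 3 counts and was 25.8-fold lower (8.51 to 128). Mrps11 (ENSMUSG00000030611, chromosome 7), of the platform, had 42 and 2 counts and was 20.1-fold lower (5.22 to 171). Mrps24 (ENSMUSG00000020477, chromosome 11), at the entry of the messenger channel, was the most abundant of the 3, with 1268 and 210 counts, 65.1 and 11.3 CPM. It was 5.77-fold lower (4.98 to 6.70).

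Most small-subunit genes with high counts were within 2-fold, on both sides of equality. Mrps17, which has a bacterial counterpart, was 1.27-fold lower with 659 and 494 counts (1.13 to 1.43). Mrps34 (410 and 359 counts) and Mrps16 (420 and 417) had intervals that include equality. Mrps14, with 2890 and 3603 counts, was 1.31-fold higher (1.24 to 1.37) and, relative to the median gene, at −0.04 on the log2 scale. Mrps7 (827 and 1091), Mrps9 (870 and 1190) and Mrps23 (1470 and 1940) were between 1.38-fold and 1.43-fold higher, and the products of Mrps7, Mrps9 and Mrps14 lie in the head of the subunit. Mrps25 was 1.65-fold and Mrps2 1.73-fold higher, with 987 and 1557 counts and with 290 and 478. Mrps12, of the decoding centre, had 301 and 338 counts and was 1.18-fold higher. Mrps5, whose lowering extends the lifespan of worms, had 95 and 120 counts and was 1.32-fold higher, with an interval that runs from close to equality to 1.75. Mrps22, linked to ovarian insufficiency, was 1.70-fold higher with 69 and 112 counts (1.25 to 2.33). The 3 relatives of the bacterial S18 protein fell on different levels: Mrps18a had 102 and 204 counts, Mrps18b 37 and 26 and Mrps18c 25 and 31.

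Genes with a bacterial counterpart and mitochondria-specific genes both held members at either end. Of 42 genes with a counterpart, 7 reached 2-fold higher and 8 lower, with a median of 0.03. Of 29 mitochondria-specific genes, 11 were higher and 4 lower, with a median of 0.34. These are 16.7% and 19.0% of the first class and 37.9% and 13.8% of the second, where all genes gave 27.9% and 10.6%. The list from which the classes were read holds Mrpl55 as mitochondria-specific. With Mrpl55 among the genes with a counterpart, that class had 7 higher and 9 lower of 43 and a median of 0.01, and the other 11 higher and 3 lower of 28 and a median of 0.41. Both medians as first given, set against the median gene, lay below 0, at −0.40 and −0.08. The quartiles overlapped, from −0.48 to 0.45 and from −0.41 to 1.27, and the difference was not tested.

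The ratio varied with the base composition and length of the transcript, in the family as in all genes. Across the 72 members Spearman's rho of the ratio with GC content was −0.33, and with transcript length it was 0.27. Across the 9902 genes with a known transcript, all read from the same 2 libraries, the values were −0.40 and 0.14. Of the 24 members with the lowest GC content (39.6% to 47.4%), 9 were at least 2-fold higher and 1 lower. Of the 24 with the highest (52.7% to 60.6%), 5 were higher and 7 lower. Split at the median GC content of all genes, 10 of 35 members below it were higher and 2 lower. Of all genes below it, 1947 of 4951 were higher and 226 lower. At or above it, 8 of 37 members were higher and 10 lower, and 815 and 809 of 4951 genes. The 24 shortest (463 to 1079 bases) had 4 higher, 9 lower and a median of −0.42, and the 24 longest (2080 to 7300 bases) 7 higher, 0 lower and a median of 0.36. Of the 14 members at or above the median length of all genes, 6 were higher and 0 lower. Of all genes at or above it, 1530 of 4951 were higher and 338 lower. Below it, 12 of 58 members were higher and 12 lower, and 1232 and 697 of 4951 genes. The members were shorter than most genes, with a median length of 1401 bases against 3063. Their median GC content, 49.9%, was close to the 49.7% of all genes. When each ratio was reduced by the median of genes of like length and GC content, the median of the family was −0.12, and 11 of the 12 lower and 9 of the 18 higher members stayed at least 2-fold apart. With members newly past the limit, 17 of the 72 were then at least 2-fold lower and 9 higher. The share of all genes after the same reduction is not given here. Mrpl28 was then at −3.20 and Mrps35 at 1.92. The part of length and GC content in the ratios was not tested further.

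**Figure D3:**
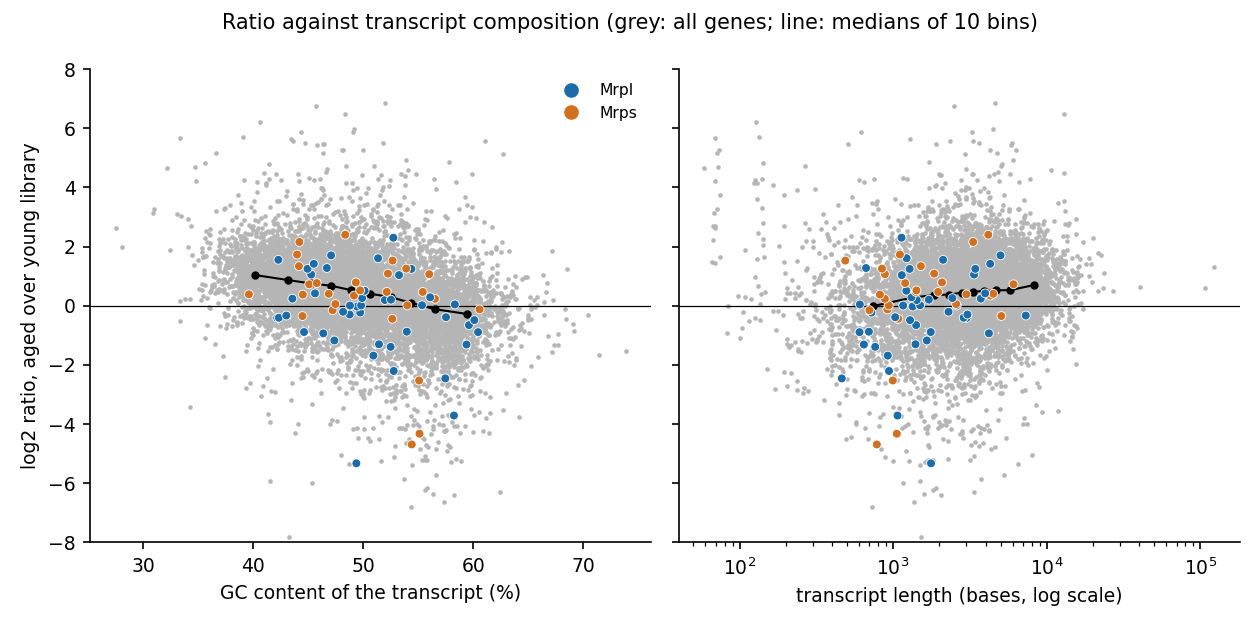
Log2 ratio of aged over young (y axis) against GC content in percent (left) and transcript length in bases on a log scale (right), for all genes (grey) and for Mrpl (blue) and Mrps genes (orange). Black points are medians of 10 bins of all genes; they fall with GC content and rise with length. Mrpl28 and Mrps24, with 58.2% and 55.1% GC, lie below the line.

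Some members cannot be counted apart from their neighbours. For the counting, strand use was not given in the sources used here. In the annotation, 32 members share exon bases with another gene, and 17 share at least 10% of theirs. Mrpl53 had 735 and 382 counts and the overlapping Gm42688 734 and 382, which differ by 1 count in the young library and by 0 in the aged one. Mrps34 (410 and 359 counts) shares 63.4% of its exon bases with Mapk8ip3 on the other strand (756 and 822) and 37.0% with Nme3 (385 and 366). Most exon bases of Mrps25 lie in the annotated exons of Nr2c2, which had 9 and 24 counts. Without the 17 genes, 55 members remained, 13 of them 2-fold higher or more and 9 lower, and the median was 0.04. Processed copies bear on another 3 genes. Mrpl23 had 2 and 5 counts while its copy Mrpl23-ps1 had 95 and 77. Mrpl48-ps had 38 and 141 counts, in the same direction as Mrpl48, and Mrps36-ps1 had 48 and 89 where Mrps36 had 114 and 98.

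Mammalian genes of this kind often start head to head with a neighbour, on opposite strands around a common promoter region. In the annotation 33 members had a protein-coding gene on the other strand whose start lay within 1000 bases. In 21 such pairs both genes were above the floor. Both were at least 2-fold apart in the same direction in 3 pairs and in opposite directions in 4. In the annotation the genes of each of these pairs, except Mrpl40 and Hira, overlap and share exon bases. With strand use not given, reads there may count for both genes. Pairs of other genes were not counted, so there is no background share to set beside these numbers. Mrpl36 and Ndufs6, of complex I, were both lower (64 and 19 counts, 254 and 103). Mrpl48 and Rab6a were both higher (51 and 130 counts, 1279 and 3174), as were Mrpl40 and the histone chaperone gene Hira (561 and 1269 counts, 2 and 40). Mrpl13 was higher where Mtbp was lower, with log2 ratios of 1.60 and −1.51. Mrpl47 and Ndufb5 stood at 1.05 and −1.21, and Mrpl21 and Ighmbp2 at 1.03 and −1.71. Mrps12 was near equality at 0.23. Its neighbour Sars2, which encodes the mitochondrial seryl-tRNA synthetase, had 41 and 0 counts. By the counting interval Sars2 was at least 10.1-fold lower, and it was 13.1-fold lower when 3 counts stand in for 0.

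The pair of Mrps11 and Mrpl46 joins 2 members. As given above, Mrps11 had 42 and 2 counts and Mrpl46 10 and 47, so the young library was the higher for Mrps11 and the aged library for Mrpl46. The RefSeq starts of these genes lie 41 bases apart, and in the wider GENCODE models they share 173 exon bases. The stretch between the starts is shown because it separates the genes of this pair that differed most (RefSeq, GRCm38.p6, chr7:78783090-78783130, plus strand, with Mrpl46 to the left and Mrps11 to the right). Capitals mark the Sp1 letters GGGCGG.
Mrpl46 to Mrps11: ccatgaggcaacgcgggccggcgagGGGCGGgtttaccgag

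**Figure D4:**
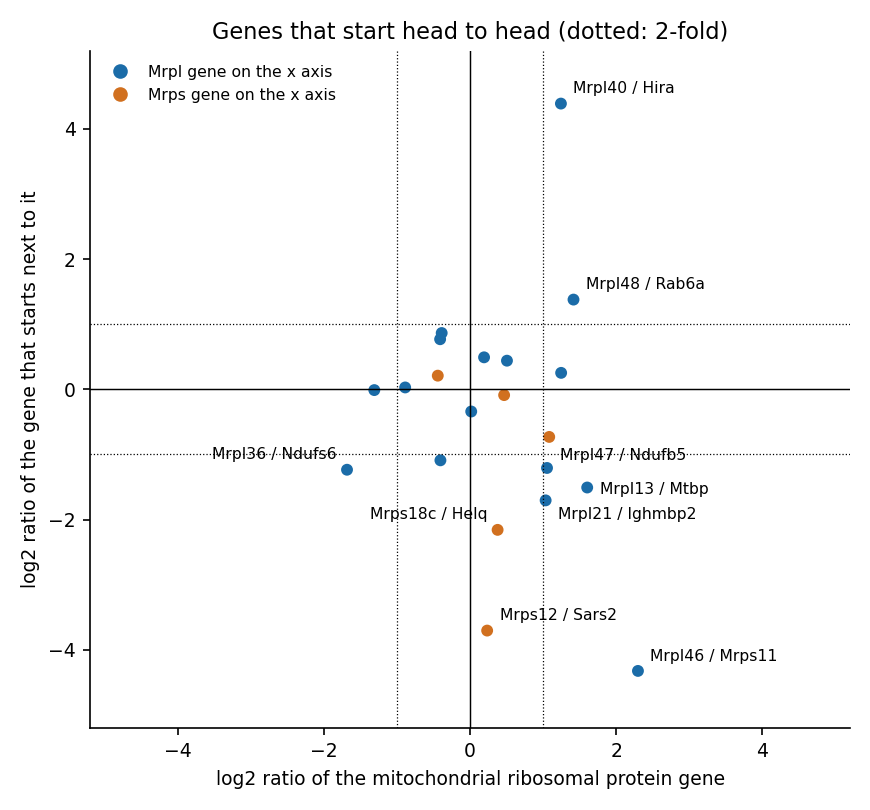
Log2 ratio of aged over young for a mitochondrial ribosomal protein gene (x axis) and for the gene that starts next to it on the other strand (y axis), in the 21 pairs with both genes above the floor. Mrpl46 and Mrps11 lie at 2.30 and −4.33, in the quadrant of opposite directions with 3 other labelled pairs beyond 2-fold on both axes.

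Promoters of nuclear genes for mitochondrial proteins are known for sites of NRF1, of ETS factors such as GABP, and of YY1. RefSeq promoter windows of 300 bases, from 250 before to 50 after the start, were matched by symbol for 68 members (build GRCm38.p6). Both strands were searched for fixed letters. The NRF1 letters, GCGC, any base, then TGCGC, were in 13 of the 68 windows, 19.1%, compared with 11.3% of the windows of 7552 genes above the floor and 4.78% of all 27025. The ETS letters CCGGAAGT were in 10, 14.7%, compared with 8.99% and 4.0%. The YY1 letters AAGATGGC were in 12, 17.6%, compared with 5.22% and 2.88%. In all, 32 members held at least 1 of these 3. The Sp1 letters GGGCGG were in 34 members, 50% against 65.1% of genes above the floor, the CCAAT box of NF-Y in 26, 38.2% against 38.7%, and TATAAA in 4, 5.88% against 6.44%. No motif searched contains another. A match is not a measured site.

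These letters occurred on both sides of equality. Of the members above the floor, the median log2 ratio was −0.20 for the 13 with the NRF1 letters and 0.24 for the 50 without. For the YY1 letters the 12 members with them had 0.12 and the 51 without 0.20, and the 9 with the ETS letters 0.42 and the 54 without 0.05. Below are the 250 bases before the start of 4 members. Mrps21, 2.88-fold higher in the aged library, has the NRF1 letters. Mrps22 has the ETS letters 11 bases before its start. Mrpl39, with 88 and 73 counts and an interval that includes equality, holds 1 stretch that reads as the NRF1 letters on both strands, and Mrpl28, the lowest member with over 500 counts in a library, has none of the 3. Capitals mark all letters searched, Sp1, CCAAT and TATAAA included. They lie at chr3:95871515-95871764 (minus strand), chr9:98601680-98601929 (minus), chr16:84735245-84735494 (minus) and chr17:26123253-26123502 (plus).
Mrps21: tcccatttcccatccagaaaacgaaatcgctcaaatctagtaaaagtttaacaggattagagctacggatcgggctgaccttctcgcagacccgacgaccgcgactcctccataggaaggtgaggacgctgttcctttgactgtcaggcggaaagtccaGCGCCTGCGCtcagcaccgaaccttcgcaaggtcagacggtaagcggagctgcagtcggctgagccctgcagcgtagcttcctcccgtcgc
Mrps22: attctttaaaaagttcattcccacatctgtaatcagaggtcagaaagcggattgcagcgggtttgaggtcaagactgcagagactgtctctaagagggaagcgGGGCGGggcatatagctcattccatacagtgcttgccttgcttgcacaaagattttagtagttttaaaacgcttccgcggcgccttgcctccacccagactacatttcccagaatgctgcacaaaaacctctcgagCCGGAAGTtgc
Mrpl39: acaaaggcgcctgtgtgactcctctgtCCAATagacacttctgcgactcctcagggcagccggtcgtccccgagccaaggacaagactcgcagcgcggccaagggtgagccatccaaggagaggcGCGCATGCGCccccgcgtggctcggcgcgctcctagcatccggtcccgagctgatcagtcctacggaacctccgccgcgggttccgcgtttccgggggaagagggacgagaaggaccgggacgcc
Mrpl28: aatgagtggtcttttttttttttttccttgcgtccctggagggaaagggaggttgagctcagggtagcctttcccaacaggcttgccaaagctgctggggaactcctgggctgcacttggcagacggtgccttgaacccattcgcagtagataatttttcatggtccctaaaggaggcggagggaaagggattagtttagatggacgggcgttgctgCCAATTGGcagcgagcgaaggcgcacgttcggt

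In 8 of the 12 members with the YY1 letters these lay after the start, where the window holds 50 bases. They began at base 12 to 37 counted from 1 at the start site, and in all 8 on the gene's own strand. Positions and strands were read for members only, so there is no share of all genes to set beside these. The letters include ATG, and whether these matches cover the start of the coding sequence was not tested. The other 4 had them 30 to 242 bases before the start. The surroundings of the match are shown for 2 members that were lower in the aged library, Mrpl49 and Mrps24, and for 2 that were higher, Mrps18a and Mrps27, with the YY1 letters in capitals (chr19:6057724-6057747, minus strand; chr11:5707652-5707673, minus; chr17:46111007-46111030, plus; chr13:99344792-99344815, plus).
Mrpl49: gaggcgccAAGATGGCagcagcgg
Mrps24: gccggcccAAGATGGCgtggtc
Mrps18a: tgcgttccAAGATGGCggccctca
Mrps27: tgcgctccAAGATGGCggctccca

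The other parts of the mitochondrial translation apparatus were compared by lists of their genes. Both mitochondrial ribosomal RNAs were higher in the aged library. The small-subunit RNA mt-Rnr1 had 6346 and 27194 counts and was 4.49-fold higher, and the large-subunit RNA mt-Rnr2 had 12935 and 43482 counts and was 3.52-fold higher. The library was primed with oligo(dT), so these values are of the RNA captured that way. Their sum was 990 CPM in the young and 3800 CPM in the aged library, while the nuclear-encoded proteins summed to 1570 and 1732 CPM. The transcripts of both RNAs are low in GC content, with a median of 35.6%, and reduced by genes of like length and GC content neither was at least 2-fold higher and the median ratio was 0.76.

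The 5 mitoribosome proteins with another symbol stem lay on both sides of equality. In the aged library 1 reached 2-fold higher and 2 reached 2-fold lower. That is 20% and 40% of these few genes, where all genes gave 27.9% and 10.6%. Set against the median gene, the higher call dropped out and the 2 lower calls stayed. The shares then became 0% and 40%, against 16.0% and 17.3% of all genes. Dap3, a GTP-binding protein of the small subunit, was 2.52-fold higher with 1306 and 3139 counts. Aurkaip1 was 3.63-fold lower with 487 and 128 counts, and Gadd45gip1, of the large subunit, 2.87-fold lower with 820 and 273. Ptcd3, another pentatricopeptide repeat protein, had 145 and 155 counts and Chchd1 241 and 297, both within 2-fold.

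Of 17 translation factor genes 12 lay above the floor, and 5 of these reached 2-fold higher and 0 lower, with a median of 0.83, or 0.41 against the median gene. These are 41.7% and 0%, where all genes gave 27.9% and 10.6%. Mtrf1, of the release factor family, had 10 and 93 counts and was 9.74-fold higher. Gfm2, a factor of ribosome recycling, was 2.91-fold higher with 131 and 364 counts, and Mtif2, the initiation factor, 2.86-fold with 34 and 93. Oxa1l, the insertase that receives new proteins at the exit tunnel, had 258 and 696 counts and Slirp, which protects mitochondrial messengers, 277 and 631. Tsfm, an elongation factor, was 1.16-fold lower with 797 and 654 counts. Tufm, its partner and in most tissues an abundant transcript, had 1 and 0 counts.

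Of 29 genes of ribosome assembly and ribosomal RNA modification, 19 lay above the floor, 3 at least 2-fold higher and 1 lower, with a median of 0.48, or 0.06 against the median gene. These are 15.8% and 5.26%, both below the shares of all genes. Rbfa, a small-subunit assembly factor, had 4 and 40 counts and was 10.5-fold higher. Nsun4, which methylates ribosomal RNA and acts with Mterf4, was 2.12-fold higher with 2119 and 4288 counts, and Mterf4 1.66-fold with 392 and 623. Malsu1, which binds the Mrpl14 protein during assembly, was 1.94-fold higher with 1002 and 1855 counts where Mrpl14 itself was 2.48-fold lower. Gtpbp6 was 2.08-fold lower with 61 and 28 counts. Below the floor, Mtg2 (29 and 2 counts), Mterf3 (23 and 1) and Noa1 (22 and 2) were all lower in the aged library, and these 3 were picked with their values in view.

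Of 19 genes for aminoacyl-tRNA synthetases that act in mitochondria, 9 lay above the floor, 3 at least 2-fold higher and 2 lower, with a median of 0.52, or 0.10 against the median gene. These are 33.3% and 22.2%, both above the shares of all genes. The higher ones were Pars2 (55 and 132 counts) and Gars and Kars, which also serve the cytosol. The lower ones were Cars2, with 75 and 1 counts, and Sars2, named above. With no floor on counts, 3 of 17 were higher and 7 lower, and the median was −0.41. Lars2, which with Hars2 is linked to ovarian failure with deafness, was 1.44-fold higher with 210 and 288 counts, and Hars2 had 1 and 1. Eral1, an assembly factor linked to the same disorder, had 86 and 125 counts, 1.52-fold higher.

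**Figure D5:**
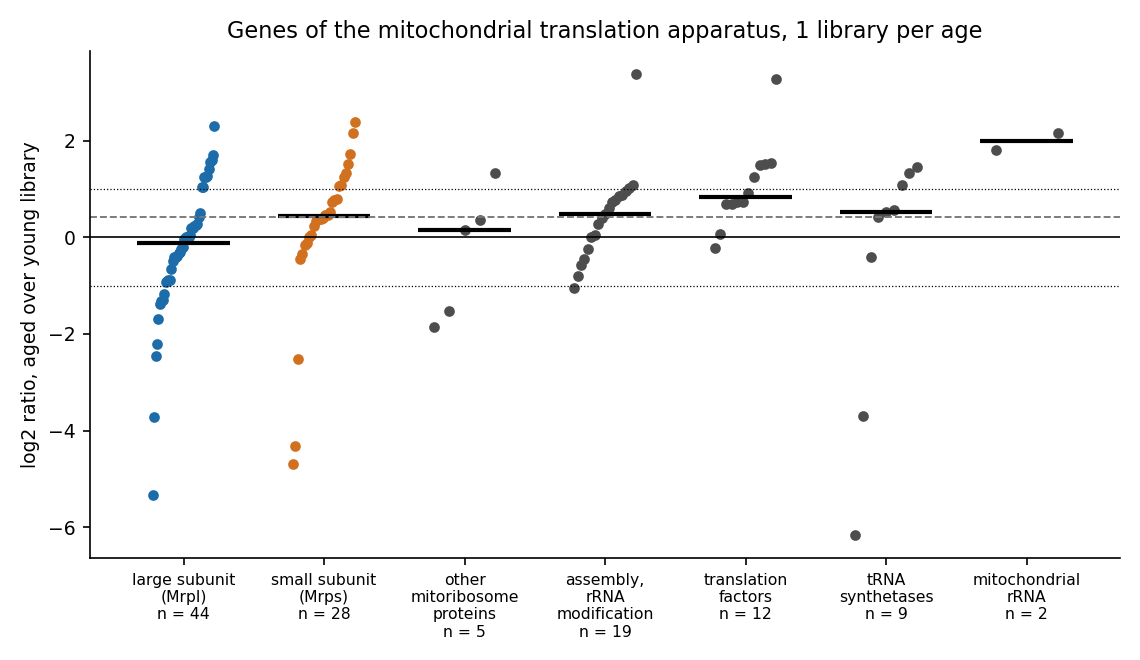
Log2 ratio of aged over young (y axis) for genes above the floor in 7 groups of the mitochondrial translation apparatus (x axis), 1 point per gene and a bar at the median. The dashed line marks the median of all genes, 0.43, and dotted lines 2-fold. The medians run from −0.12 for Mrpl genes to 1.99 for the ribosomal RNAs, and Sars2 is drawn with 3 counts in place of 0.

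Set beside related nuclear families, the mitochondrial ribosomal proteins had a smaller share of lower genes, though one above that of all genes. Of 64 cytosolic ribosomal protein genes, which translate nuclear messengers, 24 reached 2-fold lower and 10 higher, with a median of −0.47. Of 78 nuclear genes of oxidative phosphorylation 26 were lower and 12 higher, with a median of −0.50. In percent, 37.5% and 33.3% of these genes were at least 2-fold lower and 16.7% of the mitochondrial ribosomal proteins, where all genes gave 10.6%. Their transcripts were of similar GC content, with medians of 51.9%, 51.7% and 49.9%, and were shorter, with 959 and 824 bases against 1401. The differences between the families were not tested, since each rests on the same 2 libraries.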

How the data were processed

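The deposited table gives the authors' whole-number counts per Ensembl gene and library, unnormalized, for 18364 of 36227 genes. It also holds the authors' deposited log2 fold changes, z score, and p-value and q-value columns, which compare the reads of 2 libraries; only the log2 values, which are of unscaled counts and young over aged, were used, as a check (for all 72 members above the floor they matched the same unscaled ratio within 1e-06). The build was mm9, per the submitters' processing notes. Aligner, counter, annotation and strand use: not given in the sources used here. Oocytes were lysed in 1 tube per pool, primed with oligo(dT), amplified by PCR and sequenced on SOLiD, per the labels' protocols.

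Symbols, transcript length and GC content (longest protein-coding transcript) came from GENCODE M21, in which 85.5% of rows had a symbol. It describes GRCm38 and not mm9, so gene coordinates are not given. Ratios are the log2 quotient, aged divided by young, of counts scaled to library totals, with 3 counts in place of a 0. TMM factors (0.878 and 1.14) came from edgeR 4.0.16 in R 4.3.3, and other values from Python 3.11.15 with pandas 2.3.3, scipy 1.17.1 and numpy 2.4.6 (plots: matplotlib 3.10.9). Intervals are 95% Clopper-Pearson. Ratios and intervals were tried on simulated counts with Poisson error only. That setting leaves out amplification and the spread between pools, so it cannot show how the intervals fare with those. No column belongs to another sample.

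The members and lists were chosen with earlier results of these data known. The rule for named genes was the 8 highest and 8 lowest ratios above the floor, the 6 most abundant members per length, members of known role, and up to 3 of each other list. Any member could be named, and further genes of the other lists were named with their values in view.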

Additional observations from a re-analysis of the deposited data

How the results depend on the processing

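With 1 library per age no replicate could be left out, and no paired analysis was possible because each age has a single library. The limits are therefore the scaling, the floor and the counting error. Of the 30 members at least 2-fold apart, all 12 lower ones stayed so under centring, TMM and totals without the 100 most abundant genes, while 8, 9 and 10 of the 18 higher ones did. No sign changed among the 30 under those scalings, 5 added counts or the reduction by length and GC. A result is given here where it moved by more than 1.5 times (counts) or outside the medians of its genes' lower and upper interval limits (medians). The scalings move every ratio down by a constant, so they could not undo a lower call and only higher calls could drop out. The lower calls are thus not shown to be steadier than the higher ones. Other causes were not tested. The exon-sharing, structural-placement, Mrpl55-placement and coding-length alternatives were chosen after seeing the data. The first 3 left the counts within 1.5 times, and coding length kept 4 of the 6 most abundant members in each library and changed the one ranked first.

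Centred on the median gene, the numbers of higher genes were 8 in the family, 4 Mrpl, 4 Mrps, 3 with a bacterial counterpart, 5 mitochondria-specific, 0 of another symbol stem, 1 assembly, 1 synthetase, 0 regulators, 4 cytosolic ribosomal proteins and 7 of oxidative phosphorylation. Lower were 14 Mrpl, 7 mitochondria-specific and 2 assembly genes. The medians in that order of lists were −0.30, −0.54, 0.0093, −0.40, −0.082, −0.26, 0.057 (assembly), 0.41 (translation factors), 0.10, 1.57 (ribosomal RNAs), −0.11, −0.90 and −0.93, and the log2 ratio of the family's sum was −0.28. With TMM factors, 9 of the family, 5 Mrpl, 4 Mrps, 3 with a counterpart, 6 mitochondria-specific, 0 of another stem, 1 assembly, 1 synthetase, 0 regulators, 4 cytosolic and 7 oxidative phosphorylation genes were higher, and 14 Mrpl, 7 mitochondria-specific and 2 assembly genes lower. The medians were −0.25, −0.49, 0.061, −0.35, −0.031, −0.21, 0.11, 0.46, 0.15, 1.62, −0.063 and −0.87 (oxidative phosphorylation), and the sum was at −0.23. With totals without the 100 most abundant genes, 10 of the family, 5 Mrpl, 5 Mrps, 3 with a counterpart, 7 mitochondria-specific, 1 assembly and 0 regulators were higher and 2 assembly genes lower. The medians were −0.17 (family), 0.14 (Mrps), 0.050 (mitochondria-specific), 0.19 (assembly), 0.54 (translation factors), 0.23 (synthetases), 1.70 (ribosomal RNAs), 0.017 (regulators) and −0.79 (oxidative phosphorylation), and the sum was at −0.15.

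With a floor of 100 counts, which tests fewer genes, 10 of the family, 4 Mrpl, 5 mitochondria-specific, 3 translation factor, 1 regulator and 7 oxidative phosphorylation genes were higher. Lower were 7 of the family, 1 Mrps, 5 with a counterpart, 2 mitochondria-specific, 0 assembly, 0 synthetase, 0 regulator and 12 cytosolic genes, and the regulators' median was 0.10. With no floor, 6 assembly genes were higher, and 6 assembly, 7 synthetase, 3 regulator and 38 cytosolic genes lower, with a synthetase median of −0.41. With 5 counts added, 0 assembly genes were lower. Reduced by genes of like length and GC content, 9 of the family, 4 Mrpl, 5 Mrps, 4 with a counterpart, 5 mitochondria-specific, 0 of another stem, 1 assembly, 2 translation factor, 1 synthetase, 0 ribosomal RNA and 5 cytosolic genes were higher, and 0 assembly genes lower. The medians were −0.12 (family), 0.14 (Mrps), −0.32 (counterpart), 0.038 (mitochondria-specific), −0.55 (another stem), 0.068 (assembly), 0.27 (translation factors), 0.10 (synthetases), 0.76 (ribosomal RNAs) and 0.12 (regulators).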

Other observations

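Genes that regulate nuclear genes for mitochondrial proteins were read as a list of 14, of which 10 lay above the floor, 2 at least 2-fold higher and 1 lower in the aged library, and the list's middle ratio was 0.31 (log2). Both shares of calls lay below those of all genes, 27.9% higher and 10.6% lower. Set against the median gene, 0 were higher and 1 lower by the same 2-fold rule, and the median was −0.11. Those shares also lay below the 16.0% and 17.3% of all genes. Nrf1, whose letters were searched in the promoters, had 411 and 895 counts and was 2.28-fold higher. Atf5, a factor of the mitochondrial stress response, was 2.44-fold higher with 27 and 63 counts, and Ddit3, of the same response, 1.95-fold with 37 and 69. Of the subunits of GABP, Gabpb1 had 137 and 256 counts, Gabpb2 29 and 11 and Gabpa 2 and 5. Yy1 lay below the floor with 16 and 2 counts. Esrra was 1.43-fold higher with 224 and 306 counts, and the coactivator genes Ppargc1b and Pprc1 were 1.21-fold and 1.29-fold lower. The relation of these values to those of the ribosomal protein genes was not tested.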
